A study of Mus musculus with 8 samples.

Results

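The integrated stress response is the program by which cells slow protein synthesis under stress. Kinases that sense amino acid shortage, unfolded protein in the endoplasmic reticulum, viral RNA or haem deficiency phosphorylate the initiation factor eIF2, bulk translation falls, and translation of a few mRNAs such as that of ATF4 rises. ATF4 then drives genes for amino acid supply and for feedback on the response, and XBP1 belongs to the neighbouring IRE1 arm of the unfolded protein response. Much of ATF4 and XBP1 control acts on translation and on splicing, which counts per gene do not measure. The genes described here were picked by symbol. They are Atf4, Ddit3, Ppp1r15a, Trib3, Asns, Ddit4, Slc7a5, Slc7a11, Slc3a2 and Xbp1, 10 of the 55414 genes in the count table. Of these, 8 had enough counts to be tested, and Trib3 and Ddit4 did not.

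The counts came from 8 RNA libraries of cells labelled as enteric neurons, which form the nerve plexuses of the gut, from colons of mice aged 4 weeks. WT and Emb knockdown genotypes had 4 libraries each. Emb encodes embigin, a membrane glycoprotein that escorts monocarboxylate transporters. Cells of both genotypes were sorted on CD24 and CD56 into tubes of about 250 cells, and libraries were amplified with a Smart-seq kit. How the knockdown was made, the mouse strain and whether each tube held cells of a single mouse are not given in the sources at hand. The p-values thus reflect only library-to-library spread, which may be partly technical.

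WT and Emb knockdown libraries were unequal in depth and ribosomal RNA. Total counts were 698930 to 954191 in WT and 2024372 to 2712754 in Emb knockdown, and the ribosomal RNA gene Rn18s-rs5 took 3.55% to 12.999% and 29.2% to 42.5% of them (exact two-sided permutation p = 0.0286 for each, the smallest possible with 4 libraries against 4; 0.0429 adjusted over 6 library measures). Emb had 5.15, 6.90, 16.7 and 22.5 CPM (counts relative to library size, scaled by TMM) in the WT libraries, listed as replicates 1 to 4, and 3.33, 13.3, 1.62 and 3.13 in the Emb knockdown ones (log2 fold change -1.24 ± 0.82, SE; edgeR adjusted p = 0.529). Emb rested on 3 to 25 counts per library, and Emb knockdown replicate 2 lay inside the WT range. A lower Emb level was therefore not detectable at this depth. Relative to a background of olfactory and related receptor genes, per exonic kilobase, Emb itself was near background, at 0.438 to 2.17 times (WT) and 0.191 to 2.00 times (Emb knockdown). Some of the 16 listed neuronal markers were near it too: Snap25, Tubb3 and Stmn2 reached at most 2.58 times background in any library. Elavl3 and Syt1 lay at 8.85 to 26.1 times and were lower in every Emb knockdown library. Of 8 tested neuronal markers, 3 were higher in Emb knockdown and 5 lower. The only 1 of them with an unadjusted edgeR p under 0.05 was higher in Emb knockdown. Over all tested genes, 4.25% were lower in every Emb knockdown library than in any WT library. In pools of sorted cells, fewer cells of a type and less RNA per cell cannot be told apart.

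No gene of the table was called between the genotypes. By edgeR's quasi-likelihood test, 0 of 11353 genes (0.0%) passed an adjusted p of 0.05, and 1508 had an unadjusted p under 0.05. DESeq2 called 683 of the 10732 of these genes for which it gave a p-value, and limma voom called 0. What follows therefore gives levels and intervals, and "higher" or "lower" refers to measured values that did not pass edgeR's adjusted p. Of the 10 genes, DESeq2 called Atf4 (adjusted p = 0.00880), Ppp1r15a (0.0108) and Slc7a5 (0.00280), beside 683 of 10732 over all genes.

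Atf4, Ppp1r15a and Slc7a5 were higher in every Emb knockdown library than in any WT library, while Asns, Xbp1 and Slc3a2 had lower means in Emb knockdown. In the table as a whole, 4.03% of tested genes were higher in every Emb knockdown library than in any WT library, and 4.25% were lower. The measured values of the 10 genes thus did not all move in the same direction. Asns, Xbp1 and Slc3a2 rested on 2 to 62 counts per library, and their intervals cross 0. Over the 8 tested genes the median log2 fold change was 0.69, with 5 higher and 3 lower, beside a median of 0.04 over all 11353 genes, 51.6% of which were higher. Ddit3, Ppp1r15a and Slc7a5 reached the minimum count in all 4 Emb knockdown libraries and in only 2, 3 and 3 WT libraries, so their place among the tested genes leaned on Emb knockdown and the median over tested genes supports nothing. With no filter on low counts, which takes in all 10 genes, the median was 1.32, with 7 higher and 3 lower, beside 0.25 over all genes. Without Emb knockdown replicate 1 the median over 8 tested genes was -0.030, and without Emb knockdown replicate 3, which left 7 tested, it was 1.45.

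**Figure D1:**
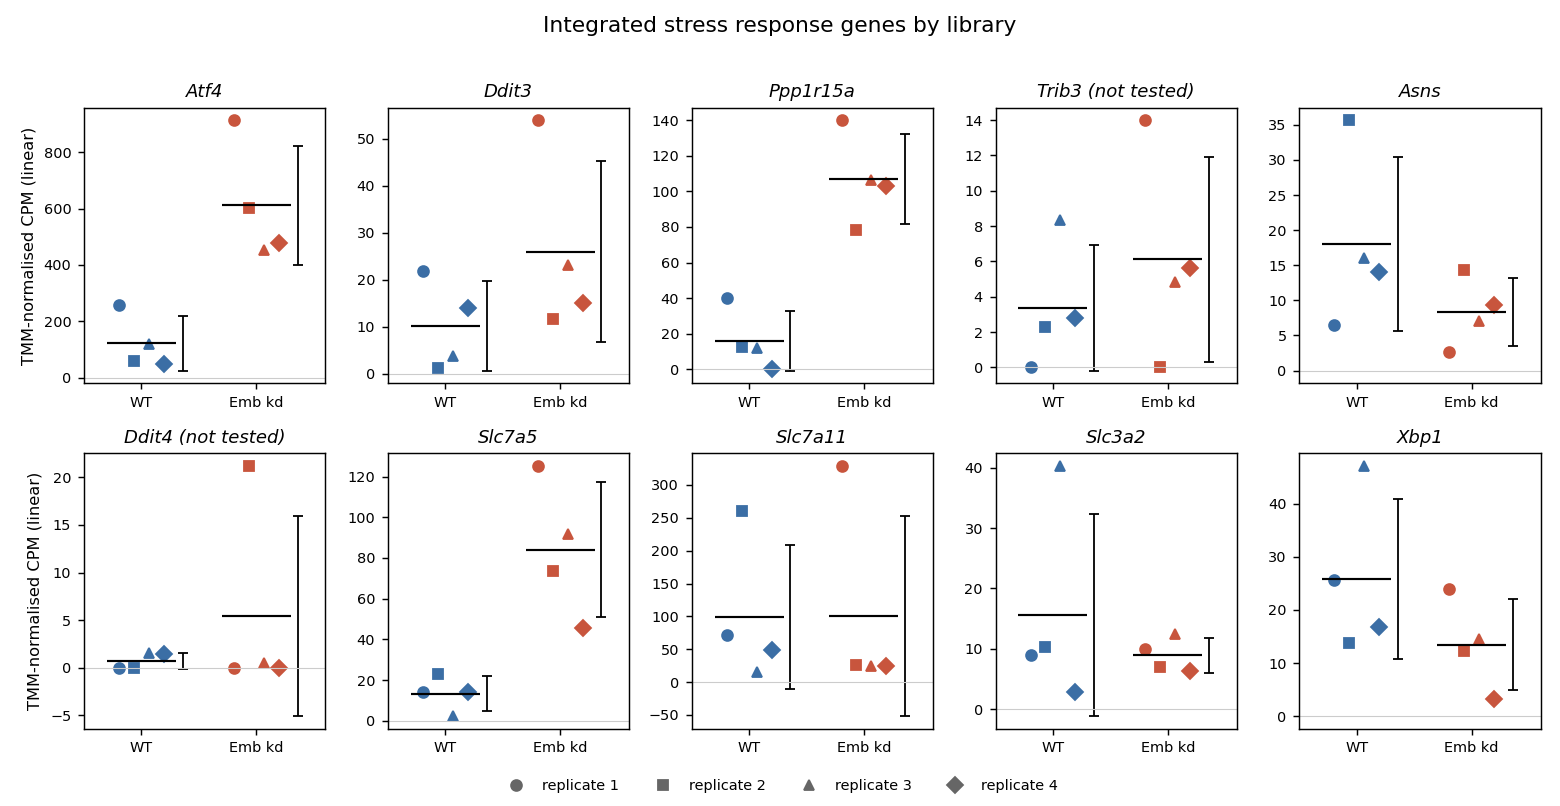
Each panel plots 1 gene, with TMM-normalised CPM per library on a linear axis (points, shape by replicate), the group mean (line) and the SD over 4 libraries (bar at the right of each group). Atf4, Ppp1r15a and Slc7a5 do not overlap between the genotypes, while the high values of Slc7a11 and Ddit4 in Emb knockdown are single libraries at 329 and 21.2 CPM.

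Atf4 encodes the central transcription factor of the response (ENSMUSG00000042406, GRCm38 chromosome 15, 80255184 to 80257541, plus strand, protein coding). Atf4 had 259, 58.6, 119 and 49.2 CPM in WT, again in replicate order, and 914, 602, 454 and 477 CPM in Emb knockdown. The lowest Emb knockdown library was above the highest WT library, and replicate 1 was the highest within each genotype. Atf4 had a log2 fold change of 2.33 ± 0.77 (SE; 95% interval 0.64 to 4.03; edgeR unadjusted p = 0.0112, adjusted p = 0.304; higher in 4 of 4 libraries), where 8.64% of all genes had an unadjusted p under 0.05 in this direction. Per kilobase of exon Atf4 was the most abundant of the 10 genes in each genotype, at 51.4 ± 41.0 (WT) and 259.5 ± 89.8 (Emb knockdown) CPM per kb (SD, n = 4). The WT libraries lay at 13.9 to 64.5 times the receptor-gene background, the Emb knockdown libraries at 156 to 460 times.

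Ddit3 encodes CHOP, a transcription factor induced downstream of ATF4 and linked to cell death under lasting stress (chromosome 10, 127290774 to 127296288, plus strand). Ddit3 had 21.9, 1.15, 3.80 and 14.1 CPM in WT and 54.0, 11.7, 23.2 and 15.0 CPM in Emb knockdown. The groups overlapped: Emb knockdown replicates 1 and 3 lay above every WT library and replicates 2 and 4 lay within the WT range. The log2 fold change was 1.36 ± 0.86 (95% interval -0.52 to 3.24; edgeR adjusted p = 0.513), which became 0.76 on leaving out Emb knockdown replicate 1 and 2.15 on leaving out WT replicate 1. The WT values rest on 1 to 17 counts per library. Ddit3 shares 68 exonic bases with the opposite-strand gene Mars, which had 32 counts summed over WT and 47 summed over Emb knockdown, and without a stated strand setting such reads cannot be assigned. A further row of the table with the symbol Ddit3, whose annotated exons share 105 bases with the first, had no counts.

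Ppp1r15a encodes GADD34, the stress-induced subunit that directs a phosphatase to eIF2 and so ends the response (chromosome 7, 45522916 to 45526268, minus strand). Ppp1r15a had 39.9, 12.6, 12.2 and 0 CPM in WT and 140, 78.5, 106 and 103 CPM in Emb knockdown. The groups did not overlap, and the Emb knockdown libraries lay within a narrow range of one another. The log2 fold change was 2.72 ± 0.96 (95% interval 0.62 to 4.82; edgeR unadjusted p = 0.0156, adjusted p = 0.311; higher in 4 of 4 libraries). Its constitutive counterpart Ppp1r15b had a log2 fold change of 1.33 ± 0.87, with 149 CPM in Emb knockdown replicate 1 and 12.5 to 23.8 CPM in the other Emb knockdown libraries.

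Trib3, a pseudokinase that restrains ATF4 and CHOP, had 0, 2, 11 and 2 counts in WT and 21, 0, 9 and 9 counts in Emb knockdown. The ratio of summed counts, divided by the TMM-scaled library sizes, was 1.4 in Emb knockdown over WT (exact 95% interval 0.753 to 2.73, counting error only), so no difference was detectable at this depth. Ddit4 encodes REDD1, an inhibitor of mTORC1 induced by stress and glucocorticoids. Ddit4 had 0, 0, 2 and 1 counts in WT and 0, 40, 1 and 0 counts in Emb knockdown. The ratio was 7.35 (counting interval 2.34 to 37.1), but Emb knockdown replicate 2 held all but 1 of the Emb knockdown counts, and the other 7 libraries had 2 counts or fewer.

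The amino acid transporters differed among themselves. Slc7a5 encodes LAT1, an exchanger of large neutral amino acids, and Slc7a11 encodes xCT, the exchanger that brings in cystine for glutathione. Each is a light chain that needs the heavy chain CD98, encoded by Slc3a2, to reach the cell surface. Slc7a5 (chromosome 8, 121881150 to 121907694, minus strand) had 14.2, 23.0, 2.28 and 14.1 CPM in WT and 125, 73.7, 91.9 and 45.7 CPM in Emb knockdown. Every Emb knockdown library was above every WT library, and the log2 fold change was 2.66 ± 0.74 (95% interval 1.04 to 4.28; edgeR unadjusted p = 0.00398, adjusted p = 0.294), the lowest p of the 8 genes tested. In WT it rested on 3 to 20 counts per library and lay at 0.402 to 4.22 times the receptor-gene background, against 11.7 to 40.1 times in Emb knockdown.

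Slc7a11 (chromosome 3, 49892526 to 50443614, minus strand) had 72.0, 260, 15.98 and 49.2 CPM in WT and 329, 25.4, 23.8 and 23.8 CPM in Emb knockdown. One library in each genotype stood far above the rest, WT replicate 2 and Emb knockdown replicate 1. The log2 fold change was 0.02 ± 1.10 (95% interval -2.38 to 2.42; edgeR adjusted p = 0.997), -2.03 without Emb knockdown replicate 1 (adjusted p = 0.441) and 1.24 without WT replicate 2, so these libraries set its sign. Slc3a2 (chromosome 19, 8706882 to 8723369, minus strand) had 9.01, 10.3, 40.3 and 2.81 CPM in WT and 9.99, 6.89, 12.4 and 6.27 CPM in Emb knockdown. All 4 Emb knockdown libraries lay inside the WT range, and the log2 fold change was -0.84 ± 0.78 (95% interval -2.53 to 0.86; edgeR adjusted p = 0.669). Without WT replicate 3 it was 0.31. Slc3a2 rested on 2 to 53 counts per library in WT and 10 to 23 in Emb knockdown. It lay at 0.530 to 7.47 and 1.68 to 3.36 times background.

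Asns encodes asparagine synthetase, a classical ATF4 target (chromosome 6, 7675169 to 7693254, minus strand). Asns had 6.43, 35.6, 15.98 and 14.1 CPM in WT and 2.66, 14.3, 7.02 and 9.40 CPM in Emb knockdown. Emb knockdown replicate 1, the library with the most Atf4, had the least Asns. The log2 fold change was -1.10 ± 0.72 (95% interval -2.69 to 0.49; edgeR adjusted p = 0.530), and it was -0.48 without WT replicate 2. Xbp1 encodes a transcription factor whose mRNA is spliced by IRE1 (chromosome 11, 5520659 to 5525893, plus strand). Xbp1 had 25.7, 13.8, 47.2 and 16.9 CPM in WT and 24.0, 12.2, 14.6 and 3.13 CPM in Emb knockdown. Emb knockdown replicates 2 and 4 lay below every WT library and the other two lay within the WT range. The log2 fold change was -0.95 ± 0.70 (95% interval -2.49 to 0.59; edgeR adjusted p = 0.579).

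**Figure D2:**
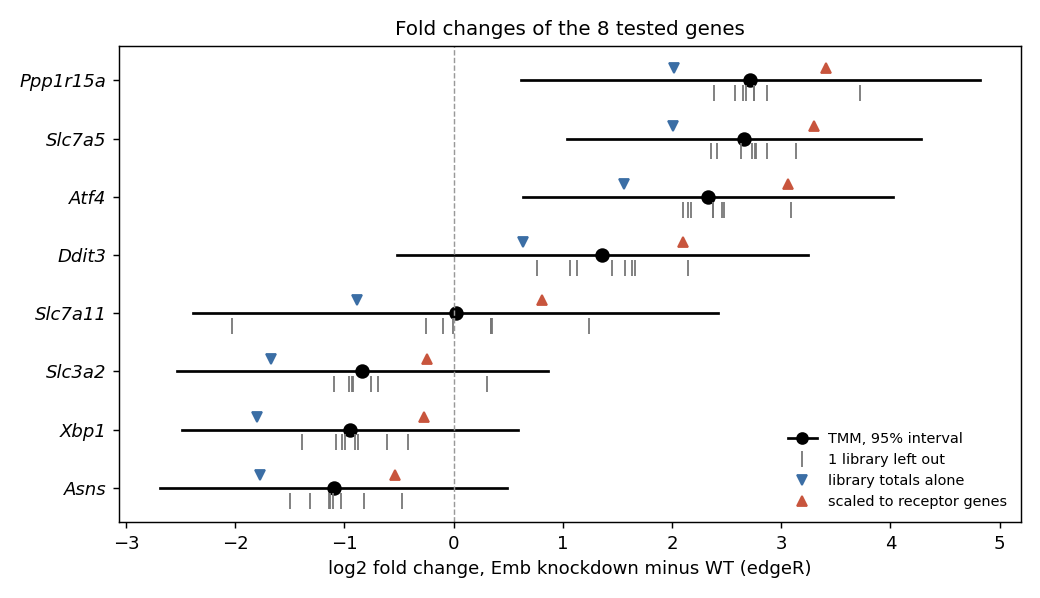
The log2 fold changes of the 8 tested genes (circles, edgeR with TMM) are plotted with their 95% intervals, the values with 1 library left out (ticks), and the values with library totals alone or scaled to receptor genes (triangles). The intervals of Ppp1r15a, Slc7a5 and Atf4 lie above 0 and the other 5 cross it; the scalings shift all genes together, and Slc7a11 is the gene whose sign turns with library totals alone.

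The order of the genes by level differed between the genotypes. In CPM per kb of exon, the WT means behind Atf4 were 7.97 ± 4.64 for Xbp1, 7.13 ± 7.86 for Slc7a11, 6.59 ± 4.55 for Asns, 5.97 ± 5.58 for Ddit3, 5.51 ± 5.74 for Ppp1r15a, 4.43 ± 4.76 for Slc3a2 and 3.61 ± 2.29 for Slc7a5 (SD, n = 4 libraries). Neighbours in that order did not differ beyond their spread. In Emb knockdown the means behind Atf4 were 36.4 ± 8.60 for Ppp1r15a, 22.7 ± 8.99 for Slc7a5 and 15.2 ± 11.3 for Ddit3, and the rest lay at 2.52 to 7.22. The annotated exons of Slc7a11 span 13922 bases, over which its level per kb is averaged.

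Ratios between genes within a library do not depend on how libraries are scaled, and 7 pairs were compared this way on counts per exonic kb with 0.5 counts added. The added counts weigh more where counts are low, so ratios of scarce genes still depend on depth. These pairs were chosen after the data had been seen, with the levels above known. The ratios are therefore a description, and no p-value is reported for them. The Slc7a5 to Slc3a2 ratio was 1.46, 2.05, 0.0623 and 4.00 in WT, and 11.6, 9.83, 6.91 and 6.66 in Emb knockdown. The groups did not overlap, and the difference in mean log2 ratio was 3.19, or 1.89 without WT replicate 3. The mean log2 ratio of Slc7a5 to Slc7a11 was -0.63 ± 0.72 (WT) and 2.66 ± 1.49 (Emb knockdown, SD, n = 4). Slc7a5 alone did not overlap between the genotypes, so both of its ratios carry that split.

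Against Atf4 itself, Asns and Xbp1 were lower in every Emb knockdown library than in any WT library. Atf4 alone did not overlap between the genotypes, so these ratios carry its split. The share of all genes that separate in a ratio to Atf4 was not computed. The mean log2 ratio of Asns to Atf4 was -2.85 ± 1.92 for WT libraries and -6.51 ± 1.32 for Emb knockdown ones, and that of Xbp1 to Atf4 was -2.50 ± 0.89 and -6.18 ± 0.97 (SD, n = 4). Ddit3 and Ppp1r15a overlapped between the genotypes in their ratio to Atf4, with differences of -0.94 and 1.07 in mean log2 ratio. The Ppp1r15a difference was 0.21 without WT replicate 4, which had no Ppp1r15a counts, and the Ddit3 difference was -0.26 without the same library. The difference for Slc7a11 to Slc3a2 was -0.09.

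**Figure D3:**
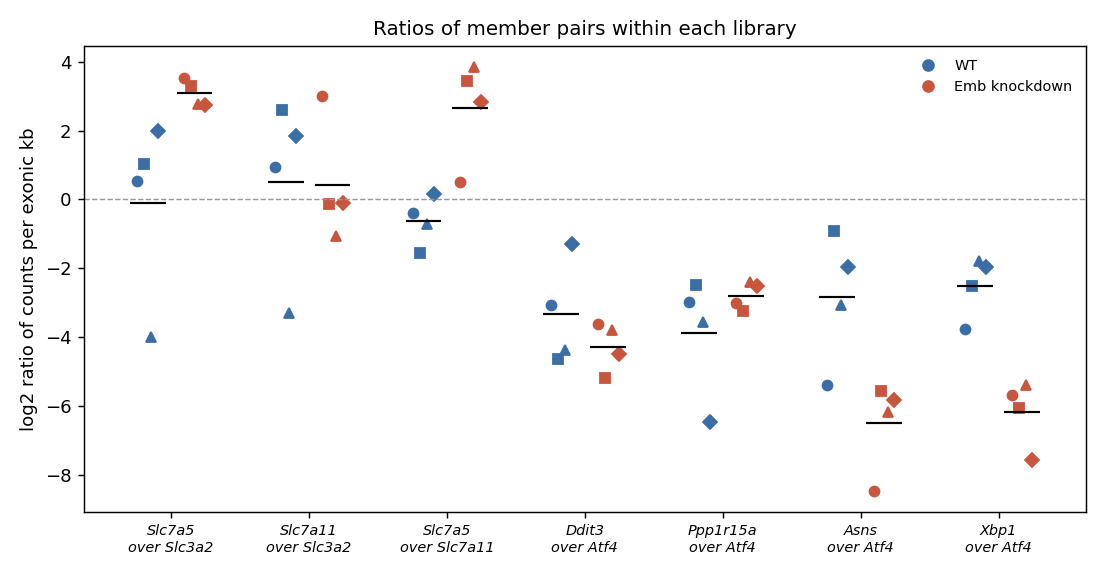
Log2 ratios of counts per exonic kb between pairs of genes are plotted for each library (points, shape by replicate as in the plot by library), with group means (lines). Slc7a5 over Slc3a2 and over Slc7a11 is higher in all 4 Emb knockdown libraries, and Asns and Xbp1 over Atf4 are lower, with no overlap between genotypes. Slc7a5 and Atf4 alone do not overlap either, and the ratios carry that split.

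Many ATF4 target genes carry a C/EBP-ATF response element, a composite site read by ATF4 with C/EBP factors. RefSeq promoters (GRCm38.p6, 250 bases before to 50 after the start site) were found for 9 of the 10 genes; Slc7a5 had no entry. The letters TGATGNAA, on either strand, occurred in 3 of the 9, Asns, Slc7a11 and Trib3, beside 4.51% of the 27025 genes with promoters of this length. Stretches of these are shown because none of the genes that hold the letters was higher in every Emb knockdown library, with the promoters of Atf4 and Ppp1r15a for comparison. All are 5′ to 3′ on the gene's strand, matches are in capitals, and all but that of Trib3 are the 150 bases before the start site.
Asns, chr6:7693210-7693359, minus strand: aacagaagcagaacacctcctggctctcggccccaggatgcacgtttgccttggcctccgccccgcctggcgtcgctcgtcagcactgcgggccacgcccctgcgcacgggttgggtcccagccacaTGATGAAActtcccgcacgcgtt
Slc7a11, chr3:50443614-50443763, minus strand: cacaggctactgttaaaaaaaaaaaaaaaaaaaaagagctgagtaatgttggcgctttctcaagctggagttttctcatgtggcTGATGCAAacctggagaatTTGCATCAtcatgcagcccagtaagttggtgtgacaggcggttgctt
Trib3, 30 bases around the match, chr2:152344028-152344057, minus strand: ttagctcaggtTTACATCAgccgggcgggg
Atf4, chr15:80255034-80255183, plus strand: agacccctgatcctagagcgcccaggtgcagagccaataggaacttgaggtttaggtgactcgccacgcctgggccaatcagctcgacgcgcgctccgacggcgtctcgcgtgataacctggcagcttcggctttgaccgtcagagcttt
Ppp1r15a, chr7:45526269-45526418, minus strand: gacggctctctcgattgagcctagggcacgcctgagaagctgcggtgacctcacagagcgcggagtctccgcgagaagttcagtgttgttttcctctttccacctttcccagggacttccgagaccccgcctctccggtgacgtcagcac
Slc7a11 holds 2 matches on opposite strands, the first beginning 66 bases before the start site and the second 47 bases before it, and the Asns match begins 23 bases before it. The ER stress response elements I and II and the core TGACGTGG of the unfolded protein response element occurred in none of the 9 windows. These elements occurred in 0.137%, 0.0444% and 0.714% of all genes. A match is a run of letters, and a missing one says only that the letters are not in this window.

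The rest of the pathway was read from 7 lists, with values given as log2 fold change ± SE; edgeR called no gene in any of them. Of the 15 tested genes for eIF2, its kinases, its exchange factor and its phosphatases, 6 were higher and 9 lower, with a median log2 fold change of -0.04. The kinase genes Eif2ak1, Eif2ak2, Eif2ak3 and Eif2ak4, which encode HRI, PKR, PERK and GCN2, had log2 fold changes of 0.38 ± 0.59, -0.06 ± 0.83, -0.04 ± 0.69 and 0.28 ± 0.64. These 4 were added to the named genes after their values were seen. Dnajc3, a co-chaperone that inhibits PERK and PKR, was higher in all 4 Emb knockdown libraries, at 52.6 to 113 CPM against 14.9 to 41.2 CPM in WT (1.52 ± 0.62, edgeR adjusted p = 0.329). Subunits of the exchange factor eIF2B differed in sign, with Eif2b5 at 1.86 ± 1.02 and Eif2b1 at -1.20 ± 0.99.

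Among transcription factors and feedback genes of the response, 6 of 10 tested were higher and 4 lower, with a median of 0.20. Nfe2l2, which encodes the antioxidant factor NRF2, had a log2 fold change of 5.12 ± 1.52, but its Emb knockdown values were 949, 115, 13.5 and 6.27 CPM, and replicates 3 and 4 overlapped WT (2.57 to 13.7 CPM). Gdf15, a stress-induced cytokine, had 67.3, 70.5, 8.11 and 3.76 CPM in Emb knockdown and 0 to 9.13 CPM in WT (2.97 ± 1.10). Atf5, a factor translated like ATF4, was at -1.57 ± 0.71 and Cebpg, a partner of ATF4, at -0.83 ± 0.89. Atf3, a stress-induced factor downstream of ATF4, was chosen after its values were seen: it had 164 to 235 CPM in WT and 203 to 358 CPM in Emb knockdown (0.57 ± 0.62). The edgeR adjusted p of these 5 genes was at least 0.295.

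Amino acid synthesis and one-carbon genes numbered 7 higher and 6 lower of 13 tested (median 0.17), among them the mitochondrial folate enzyme Aldh1l2 (1.93 ± 0.86), the gluconeogenic kinase Pck2 (-1.31 ± 0.82) and glutamine synthetase Glul (1.04 ± 0.70). Aldh1l2 had 133 CPM in Emb knockdown replicate 1 and 11.1 to 25.4 CPM in the others. Other amino acid transporters numbered 5 higher and 4 lower of 9 (median 0.26). The cationic transporter Slc7a1 was at -1.60 ± 0.82, the lysosomal glutamine transporter Slc38a7 at 1.12 ± 1.02 and the neutral transporters Slc1a5 and Slc38a1 at 0.86 ± 0.80 and -0.48 ± 0.61. Slc38a7 had 84.0 CPM in Emb knockdown replicate 4 and 2.66 to 14.3 CPM in the others, against 4.22 to 20.7 CPM in WT. No gene of this list had an unadjusted p under 0.05, unlike Slc7a5.

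Cytosolic aminoacyl-tRNA synthetases, many of them ATF4 targets, numbered 10 higher and 6 lower of 16 (median 0.21). Cars, the cysteine enzyme, had 16.7, 18.4, 26.6 and 22.5 CPM in WT and 24.6, 96.0, 76.2 and 78.9 CPM in Emb knockdown (1.70 ± 0.60). Farsb, a subunit of the phenylalanine enzyme, was at 2.93 ± 1.14, with its lowest value of all libraries, 0.666 CPM, in Emb knockdown replicate 1. Lars, the leucine enzyme, was lower in every Emb knockdown library (-1.29 ± 0.57), and the alanine enzyme Aars rested on 423 CPM in Emb knockdown replicate 3 (2.87 ± 1.38). The edgeR adjusted p of these 4 was at least 0.311.

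Unfolded protein response and endoplasmic reticulum chaperone genes numbered 13 higher and 14 lower of 27 (median -0.02). Dnajb11, a co-chaperone of BiP, was at -5.51 ± 1.92 through WT replicate 4, which held 4492 CPM against 6.43 to 80.6 CPM in the other WT libraries. Herpud1, a component of endoplasmic reticulum degradation, was at 1.77 ± 0.74, the disulfide isomerase Pdia4 at 2.13 ± 1.00 and the chaperone Hsp90b1 at 2.05 ± 0.99. Pdia4 had 116 CPM in Emb knockdown replicate 1 and 10.7 to 23.2 CPM in the others, and Hsp90b1 ran from 13.8 to 512 CPM in Emb knockdown. Genes of mTORC1 and its amino acid sensors numbered 9 higher and 6 lower of 15 (median 0.36), with the arginine sensor relative Castor2 at 2.74 ± 1.38, the mTORC1 scaffold Rptor at 1.84 ± 0.98, the leucine sensor relative Sesn1 at 1.05 ± 0.59 and the kinase Mtor at -0.91 ± 0.54. Castor2 had 997 CPM in Emb knockdown replicate 1 and 15.1 to 35.7 CPM in the others. Rptor had 337, 28.1, 30.8 and 110 CPM in Emb knockdown, and replicates 2 and 3 lay within the WT range of 6.90 to 67.7 CPM.

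**Figure D4:**
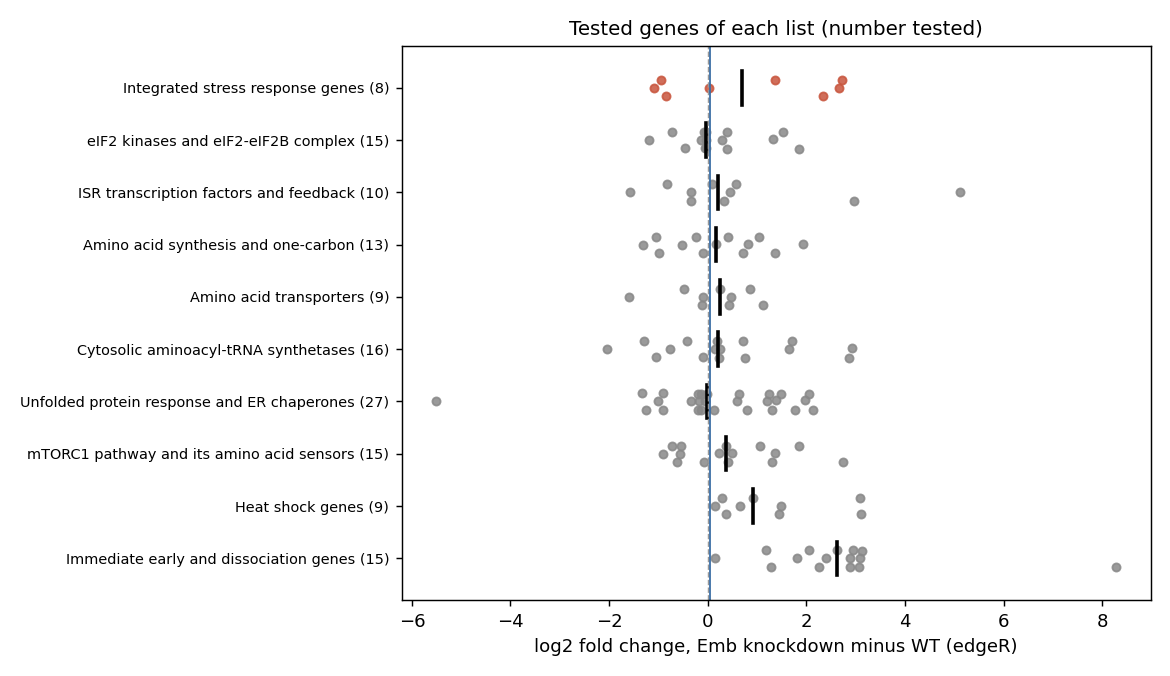
Each point is the log2 fold change of 1 tested gene, grouped by list, with list medians as black bars and the median of all tested genes (0.04) as a blue line. The 10 chosen genes (8 tested, orange) split into 3 lower, 1 near 0 and 4 higher, most pathway lists straddle 0, and the immediate early list sits at a median of 2.63.

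Transcripts of immediate early genes, which rise within minutes of stimulation or tissue dissociation, were also higher in Emb knockdown. All 15 tested of the 21 listed were higher in Emb knockdown (median log2 fold change 2.63). Over all tested genes, 51.6% were higher and the median was 0.04. The list summed to 1459 to 6888 CPM in WT and 8538 to 37120 CPM in Emb knockdown, without overlap. Junb, an AP-1 subunit, had 148 to 3094 CPM in WT and 3936 to 14254 CPM in Emb knockdown (2.89 ± 1.00, edgeR adjusted p = 0.311). Its highest Emb knockdown value was in replicate 1, as for Atf4, Ddit3, Ppp1r15a, Trib3, Slc7a5, Slc7a11 and Xbp1. Asns and Ddit4 were highest in Emb knockdown replicate 2 and Slc3a2 in Emb knockdown replicate 3. Within WT, Atf4, Ddit3 and Ppp1r15a were highest in replicate 1. Slc7a5, Slc7a11 and Asns were highest in WT replicate 2, and Trib3, Ddit4, Slc3a2 and Xbp1 in WT replicate 3. The share of all genes highest in Emb knockdown replicate 1 was not computed. Zfp36, which encodes an mRNA decay factor, had 199 to 1284 and 1376 to 2326 CPM. Heat shock genes summed to 156 to 780.5 CPM in WT and 739 to 2345 CPM in Emb knockdown. Of the 14 listed, 9 were tested and all 9 were higher, beside the same 51.6%. Whether the tested genes of the immediate early and heat shock lists met the minimum count mainly through Emb knockdown was not examined. Macrophage and dendritic markers summed to 3192 to 9296 CPM in WT and 5227 to 8638 CPM in Emb knockdown. Of 15 tested, 12 were higher and 3 lower, with a median log2 fold change of 2.08. In every Emb knockdown library 6 of them were above all WT (4.03% of all tested genes) and 2 below all WT (4.25%). The complement gene C1qa was higher (1.41 ± 0.61), while the integrin gene Itgam was lower in every Emb knockdown library (-3.27 ± 0.75). Enteric neuron markers summed to 447 to 735 CPM in WT and 386 to 648 CPM in Emb knockdown, with 3 of 8 tested higher and 5 lower. Fibroblast markers summed to 82.3 to 240 CPM in WT and 275 to 502 CPM in Emb knockdown, without overlap, with 4 of 6 tested higher and the collagen gene Col1a2 higher in every Emb knockdown library (1.99 ± 0.69). Of 7 tested glial markers, 5 were higher and 2 lower (median 0.83), and none separated the genotypes without overlap. Entpd2 had 0 to 47.6 CPM in WT and 949, 92.8, 81.1 and 20.0 CPM in Emb knockdown (3.97 ± 1.47). S100b had 0 to 8.37 CPM in WT and 90.6, 102, 18.9 and 0 CPM in Emb knockdown (3.72 ± 1.36). Lymphocyte markers summed to 51.5 to 156 and 82.7 to 835 CPM, endothelial markers to 558 to 2110 and 259 to 1507 CPM, and epithelial markers to 299.7 to 524 and 399 to 558 CPM, in WT and Emb knockdown. No marker of these lists was at 0 in all 8 libraries. The part of these transcripts and marker genes, of ribosomal RNA and of depth in the values of Atf4, Ppp1r15a and Slc7a5 was not tested.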

How the data were processed

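For the 8 libraries the authors deposited raw counts by gene in a single table. Per the submitters' processing notes, cutadapt and the build mm10 were used; no aligner, counter, strand setting or annotation is given in the sources used here. Positions and exon lengths came from GENCODE release M21 (GRCm38), which held 52133 of the 55414 identifiers.

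Counts were fitted with edgeR 4.0.16 in R 4.3.3 (filterByExpr with minimum count 10 and minimum total 15, TMM, robust quasi-likelihood, group only), and p-values were adjusted by Benjamini-Hochberg over 11353 genes. Each standard error was the log2 fold change over the root of F. Values per library are TMM-normalised CPM. Background was the summed counts of 1505 olfactory, vomeronasal and trace amine receptor genes per exonic kb. Library measures were compared by exact permutation over 70 assignments. Alternatives were other scalings, no filter, DESeq2 1.42.0, limma 3.58.1 voom, thinning, a replicate block and leaving out each library. On simulated data at this depth the fit called large changes but not moderate ones.

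The members and lists were chosen with earlier results of these data known. Genes named from the pathway lists were up to 4 tested members by smallest unadjusted p, and others from them are said to be chosen after their values were seen. For the lists of other cells and of stress the rule was highest mean CPM. Not every gene named from those lists was picked by that rule. Reads were amplified and carry no molecular identifiers, so intervals on counts cover counting error only. Results for some listed genes, and a list sum that rests on one of them, are not reported here.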

Additional observations from a re-analysis of the deposited data

Results flagged for a closer look

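In groups of 4 libraries, 3 values lay farther from the rest than Dixon's 95% critical value of 0.829 (gap over range) allows; chance alone marks about 1 group in 20, and 22 groups were examined. Slc7a11 in Emb knockdown replicate 1 was at 329 CPM, with the next library at 25.4 CPM. Ddit4 in Emb knockdown replicate 2 was at 21.2 CPM, with the next at 0.540 CPM. Emb in Emb knockdown replicate 2 was at 13.3 CPM, with the next at 3.33 CPM.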

How the results depend on the processing

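Atf4, Ppp1r15a, Slc7a5 and Ddit3 were higher, and Asns and Xbp1 lower, in Emb knockdown under each of 17 alternatives. DESeq2 on the same counts gave adjusted p of 0.00880 for Atf4, 0.0108 for Ppp1r15a and 0.00280 for Slc7a5 (log2 fold changes 2.35, 2.74 and 2.68); the other alternatives called none of the 10 genes. Genes called over the table, 0 by edgeR, numbered 683 by DESeq2, 910 with no filter, 2 with library totals alone and 1 after thinning. Over libraries left out singly, calls numbered 0 throughout and the median over the 8 tested genes ran from -0.030 to 1.45 (7 genes). It was 1.32 over all 10 with no filter (all genes 0.25), -0.13 with library totals alone (all genes -0.67), 1.45 when scaled to receptor genes (all genes 0.64) and 1.49 over 7 genes after thinning. Among genes with an unadjusted p under 0.05, 981 of 1508 were higher, 375 of 2079 with library totals alone and 2060 of 2201 when scaled to receptor genes; with no filter there were 5455. Slc7a11 turned to -0.89 with library totals alone, -0.39 with voom, -0.023 after thinning, -0.35 with the replicate block, and to -0.0083, -0.25, -0.10 and -2.03 without WT replicate 1, 3 or 4 or Emb knockdown replicate 1; its range over single libraries left out was -2.03 to 1.24. Slc3a2 turned to 0.31 without WT replicate 3 and ranged down to -1.10. The log2 ratio of Slc7a11 to Slc3a2 turned to 0.05, 0.60 and 0.35 without WT replicate 1, 2 or 4 (lowest -1.36, without WT replicate 3) and to 0.10, 0.40 and 0.09 without Emb knockdown replicate 2, 3 or 4. The cause was not tested.

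Replicate numbers gave little sign of pairing the libraries. Same-numbered deviations correlated at 0.03, 0.02, 0.01 and 0.02, and differently numbered ones at -0.04 to 0.02. WT replicate 2 correlated slightly better with Emb knockdown replicate 4 than with replicate 2. The same-numbered values are all above 0, and so few small values cannot exclude a pairing. With the replicate block, edgeR called 0 genes, 918 had an unadjusted p under 0.05, and the median of the 8 tested genes was 0.66.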

Other observations

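Over the 8 libraries, the genes whose log2 CPM was most like that of Atf4, out of 10283 considered, were Spsb1 (Pearson r = 0.971), Zbtb11os1 (0.970), Cd81 (0.960), Alg12 (0.957) and Hsd17b12 (0.955). They encode an adaptor of a ubiquitin ligase, a noncoding RNA, a tetraspanin, a mannosyltransferase of the endoplasmic reticulum and a steroid and fatty acid enzyme. Atf4 splits by genotype and the points share library depth, so these r are given as a description of 8 points. Among the 10 chosen genes Ppp1r15a ranked highest, at place 22, followed by Slc7a5 at place 646 and Ddit3 at place 723, while Asns stood at place 9922.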
